A study of Mus musculus with 12 samples.

Results

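Fat cells store triglyceride in lipid droplets, and the genes described here encode proteins that coat these droplets, help them form at the endoplasmic reticulum, or restrain their breakdown. The 10 genes were taken as a list of symbols: Plin2, Plin3, Plin4, Plin5, Cidec, G0s2, Fitm1, Fitm2, Bscl2 and Hilpda. All 10 had a probe set of their own on the array, out of 18193 genes named from probe sets with a single symbol, and together they had 12 such probe sets. Plin1, the classical perilipin of white fat, had no such probe set and is not analysed here.

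Expression was measured on 12 Affymetrix arrays, 3 in each of 4 groups of cultured mouse cells. White cells were of the established preadipocyte line 3T3-L1. Brown cells were of a brown adipocyte line that the sample titles call BFC and that the labels do not name further. White preadipocytes and brown preadipocytes were taken at day 0, when cells had been confluent for 2 days, white adipocytes at day 10 and brown adipocytes at day 8. All were grown in DMEM with 10% serum (fetal calf serum for 3T3-L1, FBS for brown cells) and 1% penicillin-streptomycin. Adipocytes of both lines had been induced for 3 days with dexamethasone at 1 µM plus IBMX at 0.5 mM. White cells also received insulin at 1 µg/mL, during induction and for 2 days after it, and then plain growth medium. Brown cells received indomethacin at 125 µM during induction, and insulin at 20 nM with the thyroid hormone T3 at 1 nM from induction to harvest. Line, agents, later medium and day of harvest cannot be told apart in a comparison of brown with white cells. The labels do not say whether replicates were separate cultures, so the p-values measure only the spread between arrays. In such bulk samples, fewer cells of a type and less RNA per cell cannot be told apart.

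A lipid droplet is a core of neutral lipid under a phospholipid monolayer. Seipin, encoded by Bscl2, and the fat storage-inducing transmembrane proteins Fitm1 and Fitm2 act in the endoplasmic reticulum where droplets bud. Perilipins (Plin genes) then coat the surface and control access of lipases, Cidec lets droplets exchange lipid and grow, and G0s2 and Hilpda are small proteins that inhibit the triglyceride lipase encoded by Pnpla2.

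Values are linear signals in arbitrary units, scaled by the authors so that every array has the same trimmed mean. Changes are differences of log2(signal + 16) with their standard error (SE) from a limma fit over the 4 groups, and a change was called at a Benjamini-Hochberg adjusted p under 0.05 over 13752 genes. A level of 32.9 to 41.2, the 40th percentile of the arrays, served as the limit below which a signal was treated as dim. Of the 10 genes, 9 exceeded it on at least 3 arrays and were tested, while Fitm1 did not. Signals of different probe sets are not compared with each other, since each probe set has its own response.

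Arrays of a group correlated at 0.978 to 0.982 over all probe sets and arrays of different groups at 0.885 to 0.935. The adipocyte markers Adipoq, Pparg, Cebpa, Fabp4, Lep, Retn, Slc2a4 and Cd36 summed to signals of 8557 to 9339 in white preadipocytes and 123200 to 140400 in white adipocytes. In the brown line the same sum was already 49230 to 57720 at day 0, with 7 of the 8 markers above the dim level on all 3 arrays, and 105700 to 110600 at day 8. Adiponectin (Adipoq) had a signal of 18695 ± 2319 (SD, n = 3) in brown preadipocytes against 31.9 ± 16.4 in white preadipocytes, so the brown day 0 cells carried adipocyte transcripts under their preadipocyte label. Ucp1, the uncoupling protein of brown fat, exceeded the dim level on every array of brown adipocytes only (382 ± 74.5, n = 3). It is 1 of 8 brown fat markers, whose sum was 156 to 180.3 in white preadipocytes, 6219 to 7637 in white adipocytes, 1056 to 1211 in brown preadipocytes and 27530 to 30150 in brown adipocytes. Among them Cox8b, chosen after its values were seen, had a mean of 5065 in white and 3685 in brown adipocytes, and Dio2 had means of 36.8 to 42.7 in all 4 groups. Sums over 5 preadipocyte markers were 11100 to 13010 in white preadipocytes, 4217 to 4776 in white adipocytes, 6704 to 7387 in brown preadipocytes and 285.5 to 307.4 in brown adipocytes. Dlk1, a preadipocyte marker, had a mean of 779 in white and 31.8 in brown adipocytes, so the adipocyte groups of the lines also differed in preadipocyte transcripts. Sums over 8 macrophage markers were 1518 to 1675 in white preadipocytes and 954 to 1074 in white adipocytes. They were 524 to 591 in brown preadipocytes and 427 to 464 in brown adipocytes. Itgam was dim on all 12 arrays. In these groups 4, 5, 4 and 3 of the 8 exceeded the dim level on every array. Lyz2 had means of 870 and 492 in white cells and 46.5 in brown preadipocytes, and was dim on every array of brown adipocytes. Those of Cd14 were 452, 236, 216 and 130 in the order above. Means of Cd68 were higher in brown cells, at 35.1, 84.3, 75.98 and 109, and those of Csf1r were 97.1 to 127. Sums over 6 endothelial markers were 40.6 to 134 on all arrays, with Pecam1, Tie1 and Vwf dim throughout. Sums over 8 skeletal muscle markers were 320 to 489, 1006 to 1036, 324 to 408 and 464 to 597 in the same order of groups, with Myog, Myf5, Myh4 and Myh1 dim throughout. Of the others, Des had means of 133, 685, 130 and 266 in that order, and Ckm of 42.4, 98.7, 49.1 and 105. Those of Acta1 were 143, 136, 122 and 80.3. The ratio of 3' to 5' signal of the beta-actin control, a sign of RNA integrity, rose with differentiation from 1.40 ± 0.0554 to 2.25 ± 0.151 in white cells and from 1.49 ± 0.0626 to 2.42 ± 0.0478 in brown cells (n = 3 each). That of Gapdh lay between 0.7504 and 0.8995 on all arrays. For the third control, Pcx, the ratio rose from 3.63 ± 0.693 to 7.64 ± 1.83 in white cells, without overlap. In brown cells it was 5.70 ± 0.902 before and 6.80 ± 0.763 after differentiation, with overlap. The part of these ratios and markers in the results below was not tested.

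The question put to both lines was how the droplet genes change as preadipocytes become fat cells. In white cells 7 of the 9 tested genes rose, 1 (Plin3) fell and 1 (Plin5) did not pass, with a median change of 3.35. Of all 13752 genes tested, 30.1% were called up and 31.2% down, and their median change was 0.02. In brown cells 7 rose and Plin3 and Hilpda did not pass, with a median change of 1.28, against 27.2% of all genes called up, 31.6% called down and a median of -0.03. Called either way were 8 of the 9 in white cells, against 61.3% of all genes, and 7 of the 9 in brown cells, against 58.7%. Preadipocyte and adipocyte arrays were fully apart for 8 of the 9 in white cells, against 66.1% of all genes, and for 7 of the 9 in brown cells, against 65.2%. Cidec, G0s2 and Plin5 exceeded the dim level only through the groups in which they were high, so these counts are descriptions.

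**Figure D1:**
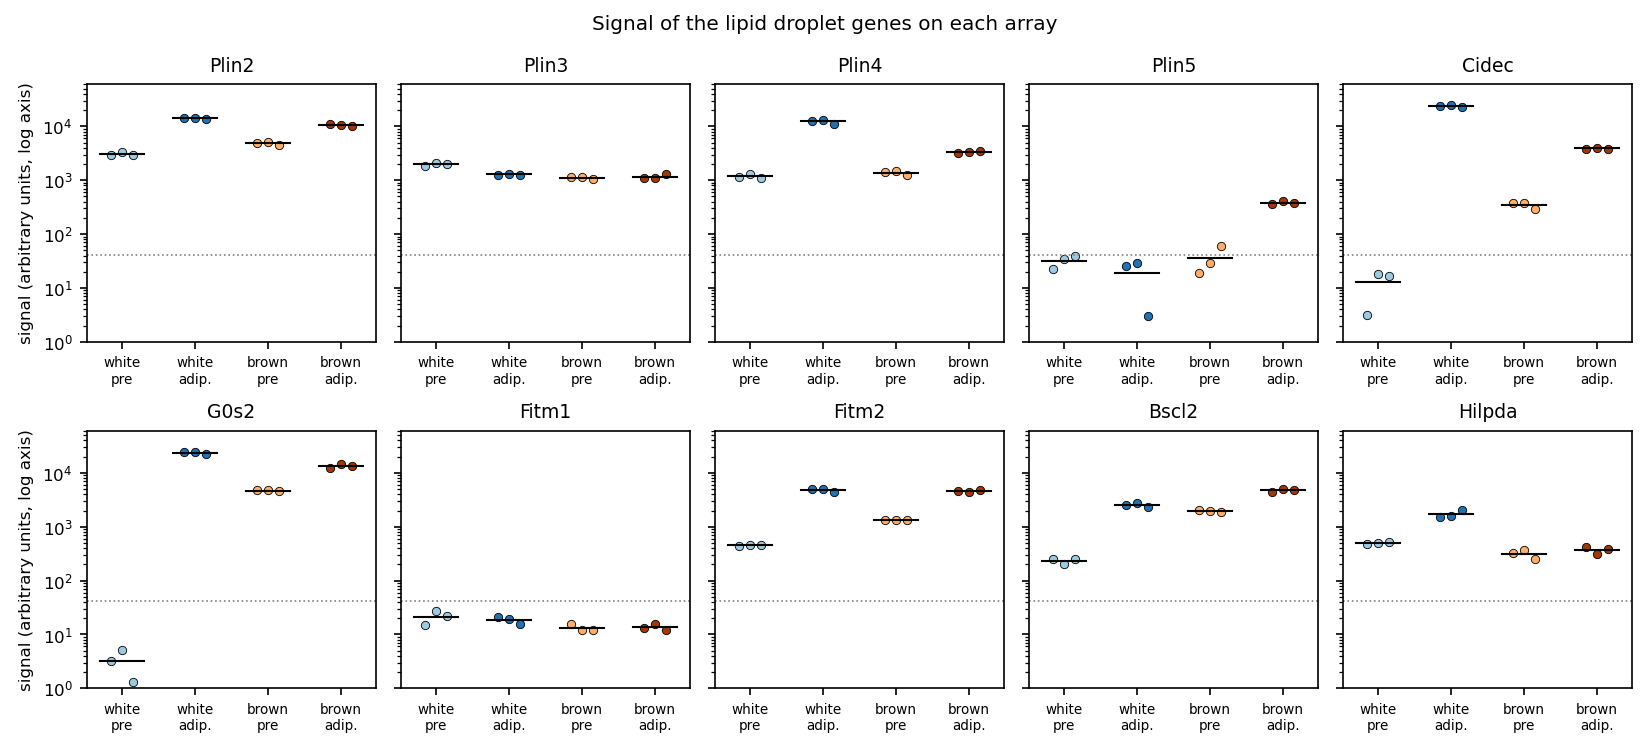
Signal of each of the 10 genes on each array (points; log axis, arbitrary units) in white preadipocytes, white adipocytes, brown preadipocytes and brown adipocytes, with bars at the mean of 3 arrays and a dotted line at the highest dim level (41.2). G0s2 and Cidec lie under the line in white preadipocytes and between 22482 and 24926 in white adipocytes, while Plin5 clears it on all 3 arrays in brown adipocytes only and Fitm1 nowhere.

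The perilipin coat proteins differed among themselves. Plin2, the perilipin present in most cell types with droplets, had signals of 2951, 3286 and 2986 in white preadipocytes and 14396, 14625 and 13650.2 in white adipocytes. In brown cells they were 4995, 5138 and 4529 before and 11123, 10848 and 10330.3 after differentiation. No 2 of the 4 groups overlapped, and the order from low to high was white preadipocytes, brown preadipocytes, brown adipocytes and white adipocytes. Plin2 rose by 2.21 in white cells (SE 0.0715, limma adjusted p = 2.02e-09) and by 1.14 in brown cells (SE 0.0715, adjusted p = 3.43e-07), which are ratios of mean signal of 4.63 and 2.20.

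Plin3, a perilipin that is found both in the cytosol and on young droplets, was the only member that fell with differentiation in either line. White preadipocytes had signals of 1849, 2098 and 1969.6, above the 1258, 1324 and 1257 of white adipocytes without overlap. Brown preadipocytes had 1152, 1154 and 1039, and brown adipocytes 1087, 1079 and 1320.04, with overlap. The white change was -0.62 (SE 0.0900, adjusted p = 0.000151), a fall to 0.649 of the mean signal. The brown change was 0.05 (95% interval -0.15 to 0.26, adjusted p = 0.636), and brown adipocyte replicate 3 lay above the other two arrays of its group. Without that array the brown change was -0.04.

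Plin4, a perilipin with many amphipathic repeats that coats small droplets in white fat cells, had signals of 1159, 1304 and 1125 in white preadipocytes and 12749, 13156 and 11220.5 in white adipocytes. The signals in brown cells were 1407, 1468 and 1258 at day 0 and 3217, 3403 and 3446 at day 8. Preadipocytes of the lines overlapped and adipocytes did not, with white adipocytes highest. The rise was 3.35 in white cells (SE 0.0892, adjusted p = 5.29e-10) and 1.28 in brown cells (SE 0.0892, adjusted p = 7.35e-07), or ratios of 10.3 and 2.44.

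Plin5, the perilipin of oxidative tissues that tethers droplets to mitochondria, was read by 2 probe sets that agreed in brown adipocytes and disagreed in white cells. The brighter probe set (with the suffix _s_at, which marks probes that can match several transcripts) had signals of 362, 413 and 370.4 in brown adipocytes. Its values were 22.2, 34.0 and 39.3 in white preadipocytes, 25.5, 29.0 and 3.06 in white adipocytes, and 18.8, 29.1 and 59.0 in brown preadipocytes. Brown adipocytes stood clear of the other groups, which overlapped each other near the dim level, with 59.0 in brown preadipocyte replicate 3 as their highest signal. With this probe set Plin5 rose by 3.02 in brown cells (SE 0.347, adjusted p = 3.12e-05), while the white change was -0.52 (95% interval -1.30 to 0.25, adjusted p = 0.223).

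The other Plin5 probe set had signals of 212, 170.4 and 197 in brown adipocytes and 26.7, 14.4 and 7.69 in brown preadipocytes, a rise of 2.74 (SE 0.251, adjusted p = 6.63e-06). In white cells it went from 7.58, 3.30 and 4.24 to 41.2, 15.4 and 36.6, a change of 1.12 that passed the test (SE 0.251, adjusted p = 0.00313). White adipocytes did not overlap white preadipocytes here, but 4 of these 6 arrays lay below their own 40th percentile and 2, both of white adipocytes, just above it. The sign of the Plin5 change in white cells differed between its probe sets, and their mean gave 0.30, which did not pass. Bscl2, the other gene with 2 probe sets, showed the same order of groups with both.

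**Figure D2:**
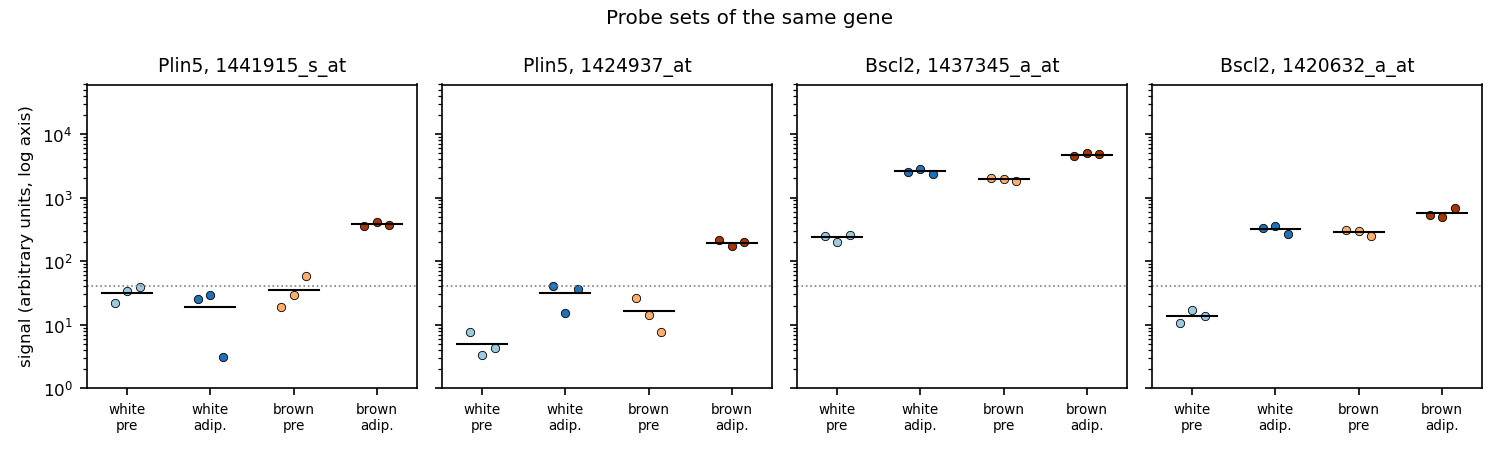
Signal on each array (points; log axis, arbitrary units) of the 2 probe sets of Plin5 and the 2 of Bscl2 in the 4 groups, with bars at the mean of 3 arrays and a dotted line at the highest dim level (41.2). Both Plin5 probe sets are highest in brown adipocytes and part in white cells, whereas both Bscl2 probe sets rank the groups from white preadipocytes through brown preadipocytes and white adipocytes to brown adipocytes.

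Plin4 and Plin5 are next to each other in the order of protein-coding genes in the GRCm38.p6 reference, and the gene after Plin5 is Lrg1, the adipokine gene of the series title. The lines parted in adipocytes. Lrg1 had signals of 162, 178 and 161 in white adipocytes and 1004, 1086 and 1003 in brown adipocytes, and 2.05 to 6.22 on the 6 preadipocyte arrays. Lrg1 and Plin5 were higher in brown adipocytes, by 2.52 (SE 0.0966, adjusted p = 9.40e-09) and 3.59 (SE 0.347, adjusted p = 8.03e-06). The other Plin5 probe set gave 2.195 (SE 0.251, adjusted p = 3.24e-05). Plin4 was lower in brown adipocytes, with a brown minus white difference of -1.88 (SE 0.0892, adjusted p = 4.43e-08).

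The 250 bases before the start sites of Plin4 and Plin5 are shown since these neighbours had opposite line preference. They come from RefSeq (GRCm38.p6), read 5′ to 3′ on the gene's strand. Capitals mark matches on either strand to any of 8 motifs. These were TATAA (the core of a TATA box), the CCAAT box, the GC box GGGCGG, the nuclear receptor core AGGTCA, and ACGTG, the core of sites of hypoxia-inducible factors. The others were the E-box CACGTG, which contains ACGTG, the C/EBP palindrome TTGCNNAA, and the direct repeat of PPAR and RXR, which is 2 copies of AGGTCA with 1 base between them.
Plin4, chr17:56109783-56110032, minus strand: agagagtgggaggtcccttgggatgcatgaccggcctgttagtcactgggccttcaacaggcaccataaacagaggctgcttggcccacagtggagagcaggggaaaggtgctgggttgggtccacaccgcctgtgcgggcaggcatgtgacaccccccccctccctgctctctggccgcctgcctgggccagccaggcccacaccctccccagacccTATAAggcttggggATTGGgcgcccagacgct
Plin5, chr17:56117549-56117798, minus strand: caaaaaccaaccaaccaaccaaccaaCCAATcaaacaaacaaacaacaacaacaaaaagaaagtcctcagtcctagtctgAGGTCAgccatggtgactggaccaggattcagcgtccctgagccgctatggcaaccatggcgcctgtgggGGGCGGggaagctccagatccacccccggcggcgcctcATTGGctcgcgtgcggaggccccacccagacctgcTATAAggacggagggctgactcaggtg
Plin5 has 2 start sites in the table, and the upstream one is shown. The other holds GC boxes only. Both sequences above hold TATAA shortly before the start, at base -32 in Plin4 and -27 in Plin5, counted back from the start site. Of 32851 promoters of this length in the table, 22.8% hold that string somewhere. Plin5 also holds AGGTCA, found in 14.0% of all promoters, and a GC box, found in 32.7%. The CCAAT box, held by both, is found in 33.8%. The direct repeat of PPAR and RXR occurs in 11 of the 32851 promoters and in none of the 15 start sites listed for the 10 genes, and CACGTG, found in 6.02%, in none of them either. No match says only that these letters are not in this window.

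Cidec and G0s2 had the largest changes of the list. Cidec, the lipid droplet protein FSP27 in mice that promotes large droplets, had signals of 3.18, 18.5 and 16.4 in white preadipocytes and 24185, 24848 and 22482 in white adipocytes. In brown cells the signals were 377, 374.5 and 296 at day 0 and 3834, 4052 and 3880.4 at day 8. None of the 4 groups overlapped, and brown preadipocytes already stood above the dim level. The rise was 9.75 in white cells (SE 0.193, adjusted p = 8.63e-11) and 3.44 in brown cells (SE 0.193, adjusted p = 1.45e-07), the latter a ratio of mean signal of 11.2.

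G0s2, the inhibitor of the lipase encoded by Pnpla2, had signals of 3.24, 5.26 and 1.29 in white preadipocytes and 24079.8, 24926 and 22682 in white adipocytes. Brown preadipocytes had 4719, 4828 and 4540.3, and brown adipocytes 12579.6, 14449.7 and 13542. All 4 groups were apart, and the day 0 cells of the 2 lines lay at opposite ends of the arrays' range. The percentile of G0s2 among the probe sets of an array was 2.4 to 14.1 in white preadipocytes, 96.1 to 96.3 in brown preadipocytes and 99.6 to 99.7 in white adipocytes. The changes were 10.28 in white cells (SE 0.0862, adjusted p = 1.05e-12) and 1.52 in brown cells (SE 0.0862, adjusted p = 1.55e-07). Because the white starting signals of G0s2 and Cidec are dim, the size of these rises depends on the constant added before the log, whereas their direction does not.

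The sequences before the start sites of Cidec and G0s2 are shown because both genes went from dim to near the top of the array in white cells. Capitals mark the same strings as above. For Cidec, which has 2 start sites in the table, the site with a C/EBP match is shown.
G0s2, chr1:193273189-193273438, minus strand: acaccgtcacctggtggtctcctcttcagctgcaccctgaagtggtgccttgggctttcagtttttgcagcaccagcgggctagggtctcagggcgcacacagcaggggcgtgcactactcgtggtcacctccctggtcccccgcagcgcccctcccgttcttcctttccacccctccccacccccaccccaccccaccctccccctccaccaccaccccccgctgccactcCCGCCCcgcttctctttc
Cidec, chr6:113434765-113435014, minus strand: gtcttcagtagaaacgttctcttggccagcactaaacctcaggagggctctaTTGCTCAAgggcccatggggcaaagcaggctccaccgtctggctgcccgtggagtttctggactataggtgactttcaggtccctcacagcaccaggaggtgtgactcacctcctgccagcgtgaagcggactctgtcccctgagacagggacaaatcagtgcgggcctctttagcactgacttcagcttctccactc
G0s2 holds a GC box at base -18 and no TATAA. The C/EBP string TTGCNNAA, at base -198 of Cidec, was found in 9.56% of all promoters and in no other of the 15 start sites. The promoter of G0s2 was 67.2% G and C and this promoter of Cidec 56.8%, against a median of 52.4% over the table.

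Hilpda, a small droplet protein induced by hypoxia that also restrains the Pnpla2 lipase, had signals of 470.3, 507 and 511 in white preadipocytes and 1543, 1594 and 2029.7 in white adipocytes. Brown preadipocytes had 326, 370.4 and 255, and brown adipocytes 421, 312 and 389. White adipocytes were above all other arrays, and the brown groups overlapped. Hilpda rose by 1.75 in white cells (SE 0.157, adjusted p = 3.67e-06), a ratio of 3.47. In brown cells the change was 0.23 (95% interval -0.12 to 0.58, adjusted p = 0.228).

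The downstream start site of Hilpda is shown as the only one of the 15 with ACGTG, a string that 16.6% of all promoters hold.
Hilpda, chr6:29272376-29272625, plus strand: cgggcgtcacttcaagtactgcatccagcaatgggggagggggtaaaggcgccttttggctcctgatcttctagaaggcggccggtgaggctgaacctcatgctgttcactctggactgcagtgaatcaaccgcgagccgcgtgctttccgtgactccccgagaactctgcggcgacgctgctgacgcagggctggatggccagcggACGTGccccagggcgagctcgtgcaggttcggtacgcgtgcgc
The match lies at base -43. It is a description of the sequence, and no binding was measured.

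Genes of droplet formation at the endoplasmic reticulum rose in both lines where they were tested. Bscl2, whose loss causes lipodystrophy, had signals of 250.1, 203 and 256 in white preadipocytes and 2565, 2806 and 2347 in white adipocytes with its brighter probe set. Brown cells had 2059, 1981 and 1841 at day 0 and 4457, 4965 and 4827 at day 8. The 4 groups did not overlap, and Bscl2 was the only member besides Plin5 to be highest in brown adipocytes. The rise was 3.36 in white cells (SE 0.101, adjusted p = 1.19e-09) and 1.27 in brown cells (SE 0.101, adjusted p = 1.89e-06), or ratios of 10.9 and 2.42. The dimmer Bscl2 probe set gave 3.49 and 0.96, both called (adjusted p = 2.16e-08 and 0.000382).

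Fitm2, the widely expressed fat storage-inducing protein, had signals of 441, 463 and 462 in white preadipocytes and 5102, 4936 and 4392 in white adipocytes. Brown preadipocytes had 1345, 1329 and 1334, and brown adipocytes 4568, 4381 and 4739.8. Adipocytes of the lines overlapped and all other groups were apart. Fitm2 rose by 3.35 in white cells (SE 0.0673, adjusted p = 9.11e-11) and by 1.76 in brown cells (SE 0.0673, adjusted p = 9.80e-09), ratios of 10.6 and 3.42. Fitm1, its relative of skeletal muscle and heart, had signals of 11.9 to 26.9 over all 12 arrays, at the percentiles 19.5 to 35.9, and was not tested. These signals do not show that the transcript was absent.

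**Figure D3:**
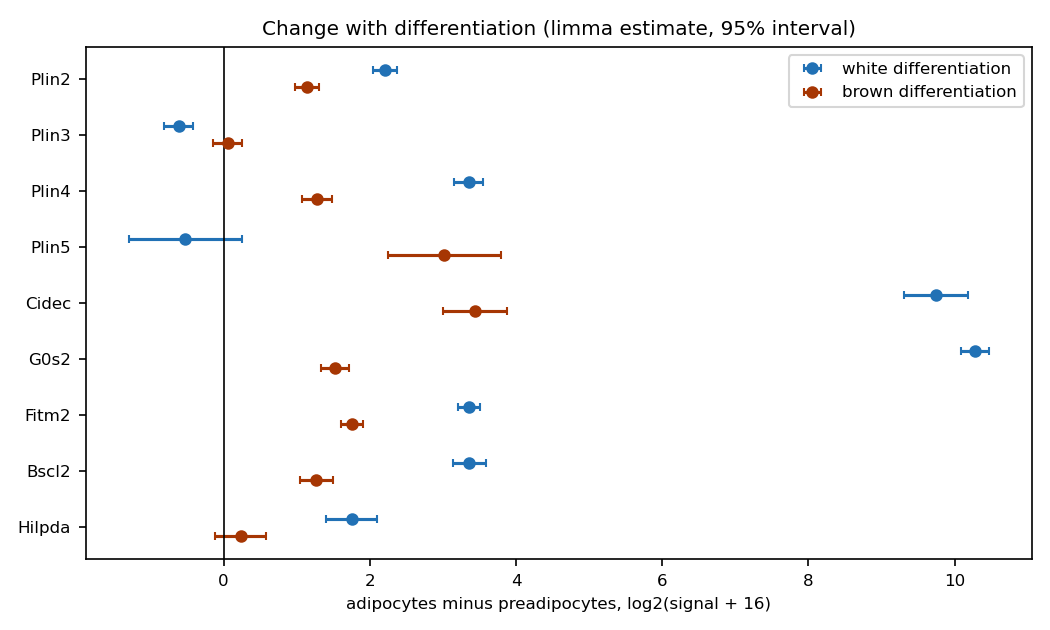
Change with differentiation of the 9 tested genes in white and brown cells (x axis: adipocytes minus preadipocytes in log2(signal + 16)), as limma estimates with 95% intervals. The white estimate lies to the right of the brown estimate for 7 genes and to the left for Plin3 and Plin5.

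The change with differentiation differed between the lines for all 9 tested genes by the interaction term of the fit, 2 of them (Plin3 and Plin5) with a higher brown change and 7 with a lower one. Of all genes tested, 23.6% were called with a higher and 27.5% with a lower brown change. For G0s2 it was -8.76 (SE 0.122, adjusted p = 1.51e-10) and for Cidec -6.31 (SE 0.273, adjusted p = 5.55e-08). Their size rests on dim white preadipocyte signals and ran from -11.04 to -6.96 for G0s2 and from -7.56 to -5.01 for Cidec over the alternatives. For Bscl2 and Plin4 it was -2.09 (SE 0.142, adjusted p = 1.13e-06) and -2.08 (SE 0.126, adjusted p = 5.22e-07). For Plin5 it was 3.54 (SE 0.491, adjusted p = 0.000176), and 1.62 (SE 0.355, adjusted p = 0.00397) with the other probe set.

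Comparing the lines at day 0 asked which droplet genes already differ in the cells labelled preadipocytes. Of the 9 genes, 5 were higher in brown cells, 2 (Plin3 and Hilpda) were lower and 2 (Plin4 and Plin5) did not pass, against 31.3% of all genes called higher and 23.8% called lower (55.1% either way). The arrays of the lines did not overlap for 7 of the 9, against 62% of all genes. G0s2 was higher by 7.94 (SE 0.0862, adjusted p = 1.33e-11), Cidec by 3.71 (SE 0.193, adjusted p = 1.35e-07) and Bscl2 by 2.98 (SE 0.101, adjusted p = 7.24e-09). Here too the dim white signals left the size of the first and second open to the constant added, from 6.15 to 10.22 for G0s2 and from 2.43 to 4.96 for Cidec over the alternatives. Fitm2 was higher by 1.52 (SE 0.0673) and Plin2 by 0.67 (SE 0.0715), ratios of mean signal of 2.94 and 1.59. Plin3 was lower by -0.81 (SE 0.0900, adjusted p = 2.92e-05) and Hilpda by -0.64 (SE 0.157, adjusted p = 0.00573). The differences of Plin4 and Plin5 were 0.20 (95% interval 0.00244 to 0.401, adjusted p = 0.0810) and 0.05 (95% interval -0.73 to 0.83).

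After differentiation the order turned for several genes. Plin2, Cidec and G0s2, higher in brown preadipocytes, were lower in brown than in white adipocytes, by -0.40 (SE 0.0715, adjusted p = 0.000665), -2.60 (SE 0.193, adjusted p = 1.10e-06) and -0.82 (SE 0.0862, adjusted p = 1.45e-05). In mean signal, white adipocytes exceeded brown adipocytes 6.08 times for Cidec, 4.60 times for Hilpda, 3.69 times for Plin4, 1.77 times for G0s2 and 1.32 times for Plin2. Bscl2 was higher in brown adipocytes, by 0.88 (SE 0.101, adjusted p = 2.76e-05) or 1.85 times, and Plin5 by 3.59. The size for Plin5 rests on white adipocyte signals that were dim or nearly so. It ran from 2.195, with the other probe set, to 4.69 over the alternatives. In all, 5 of the 9 were called lower in brown adipocytes and 2 higher, against 29.5% and 30.1% of all genes (59.6% either way). The arrays of the lines did not overlap for 7 of the 9, against 65.6% of all genes. Plin3 differed by -0.14 (95% interval -0.34 to 0.06) and Fitm2 by -0.07 (95% interval -0.22 to 0.08), neither of which passed.

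**Figure D4:**
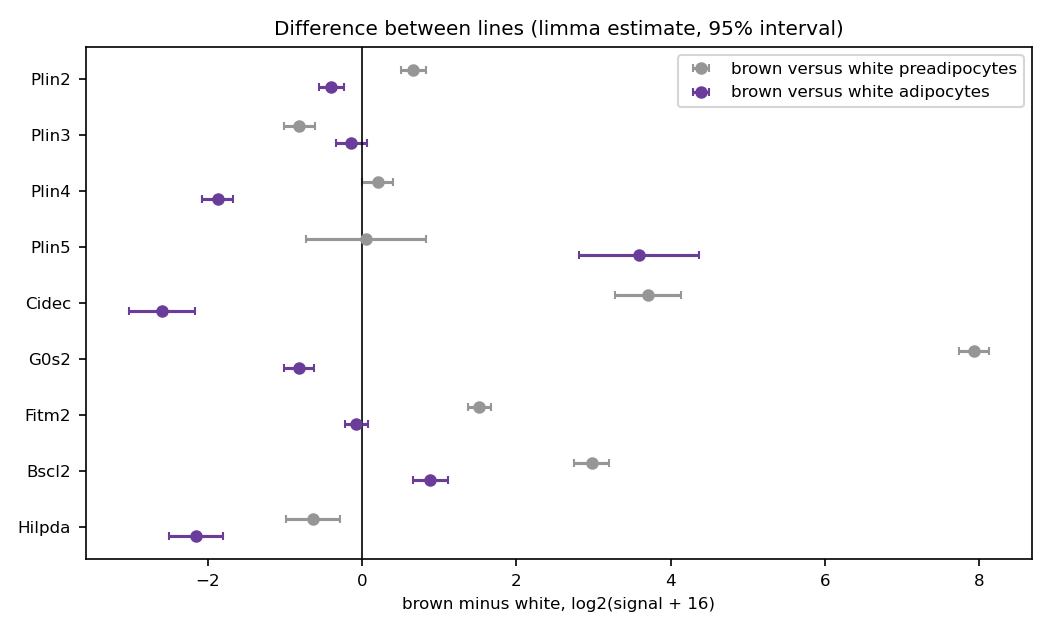
Difference between brown and white cells of the 9 tested genes (x axis: brown minus white in log2(signal + 16)) for preadipocytes (grey) and adipocytes (purple), as limma estimates with 95% intervals. Plin2, Cidec and G0s2 lie to the right of 0 before and to the left of 0 after differentiation, while Bscl2 stays to the right and Hilpda to the left.

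The other genes of droplet biology were taken from 8 lists with 91 entries, of which 86 matched the array and 85 were tested. In white cells 61 of the 85 rose and 4 fell, with a median change of 1.22, and in brown cells 51 rose and 16 fell, with a median of 0.62. Of all genes, 30.1% rose and 31.2% fell in white cells, and 27.2% rose and 31.6% fell in brown cells. All 8 lipases and cofactors acting on droplets rose in both lines. Pnpla2, the triglyceride lipase that G0s2 and Hilpda inhibit, went from 187 ± 13.6 to 6271 ± 262 in white cells and from 536 ± 55.6 to 9253 ± 625 in brown cells (n = 3). It rose by 4.95 (SE 0.0892, adjusted p = 5.01e-11) and 4.07 (SE 0.0892, adjusted p = 3.56e-10). Its activator Abhd5, which perilipins hold at the droplet, rose by 3.21 (SE 0.0744) in white cells and by 0.55 (SE 0.0744, adjusted p = 0.000109) in brown cells. Brown adipocytes had more Pnpla2 signal than white adipocytes (0.56, SE 0.0892, adjusted p = 0.000312) with less of its inhibitors' genes G0s2 and Hilpda and less Abhd5 (-1.97, SE 0.0744, adjusted p = 8.42e-09).

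Triglyceride synthesis genes rose in 9 of 13 tested cases in each line, with 1 (Lpin2) down in brown cells. Of all genes, 30.1% rose in white and 27.2% in brown cells. Dgat2, which makes triglyceride from diacylglycerol, went from 196 ± 15.7 to 9487 ± 660 in white cells and from 1125 ± 147 to 8058 ± 264 in brown cells, rises of 5.49 (SE 0.0994) and 2.83 (SE 0.0994). Between adipocytes, 5 of the 13 were lower and 4 higher in brown cells, against 29.5% and 30.1% of all genes, with a median difference of 0.04. The acyltransferases Gpat3 and Agpat2 were lower in brown than in white adipocytes, by -2.17 (SE 0.107, adjusted p = 5.62e-08) and -1.57 (SE 0.0978, adjusted p = 3.01e-07). Mogat1, which makes diacylglycerol from monoacylglycerol, was higher in brown adipocytes, by 1.74 (SE 0.205, adjusted p = 3.43e-05). Cidea, the relative of Cidec in brown fat, was higher in brown adipocytes, where Cidec was lower. Cidea rose by 8.07 (SE 0.387, adjusted p = 4.82e-08) in brown cells. In white cells it rose by 1.39 (SE 0.387, adjusted p = 0.00968), to a signal near the dim level. Its signal was 6754 ± 337 in brown adipocytes and 63.3 ± 32.3 in white adipocytes, a difference of 6.51 (SE 0.387, adjusted p = 2.17e-07). Cideb, the other gene of that list, changed by 0.09 in white and by -0.44 in brown cells (SE 0.305 each) and passed in neither.

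Of 30 proteins of the droplet surface and partners of seipin, 14 rose and 4 fell in white cells, with a median change of 0.27. Of all genes, 30.1% rose and 31.2% fell in white cells. In brown cells 11 rose and 11 fell, with a median of -0.01, which is near the shares and the median of all genes. Tmem159, also called Ldaf1, the partner that forms a complex with seipin, had signals of 196 ± 11.1, 381 ± 65.0, 499 ± 76.8 and 769 ± 24.0 in white preadipocytes, white adipocytes, brown preadipocytes and brown adipocytes. Like Bscl2, it was higher in brown cells both before (1.27, SE 0.132, adjusted p = 1.85e-05) and after differentiation (1.00, SE 0.132, adjusted p = 8.34e-05). Of 12 transcription factors that act on droplet genes, 11 rose in white cells, and in brown cells 9 rose and 1 (Hif1a) fell. The shares of all genes called up were 30.1% in white and 27.2% in brown cells. Ppara, a fatty acid sensor that drives Plin5 in oxidative tissue, had its highest signal in brown adipocytes (1117 ± 103 against 42.1 ± 10.5 in white adipocytes), a difference of 4.30 (SE 0.136, adjusted p = 2.70e-09). Of 19 targets of hypoxia-inducible factors, 18 rose in white cells, 13 rose and 3 fell in brown cells, and 14 were lower and 2 higher in brown than in white adipocytes. Between adipocytes 29.5% of all genes were lower and 30.1% higher in brown cells, shares that moved with the scaling of the arrays. The largest changes of these targets in white cells were rises of Ero1a (4.51, SE 0.121), Ndrg1 (3.84, SE 0.202) and Pfkfb3 (3.55, SE 0.188). In brown cells Egln3 (4.31, SE 0.228) and Car9 (3.70, SE 0.336) rose most. Adm, which encodes adrenomedullin, is 1 of the 3 targets that fell in brown cells. It rose by 1.99 (SE 0.189) in white cells and fell by 3.98 (SE 0.189) in brown cells.

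**Figure D5:**
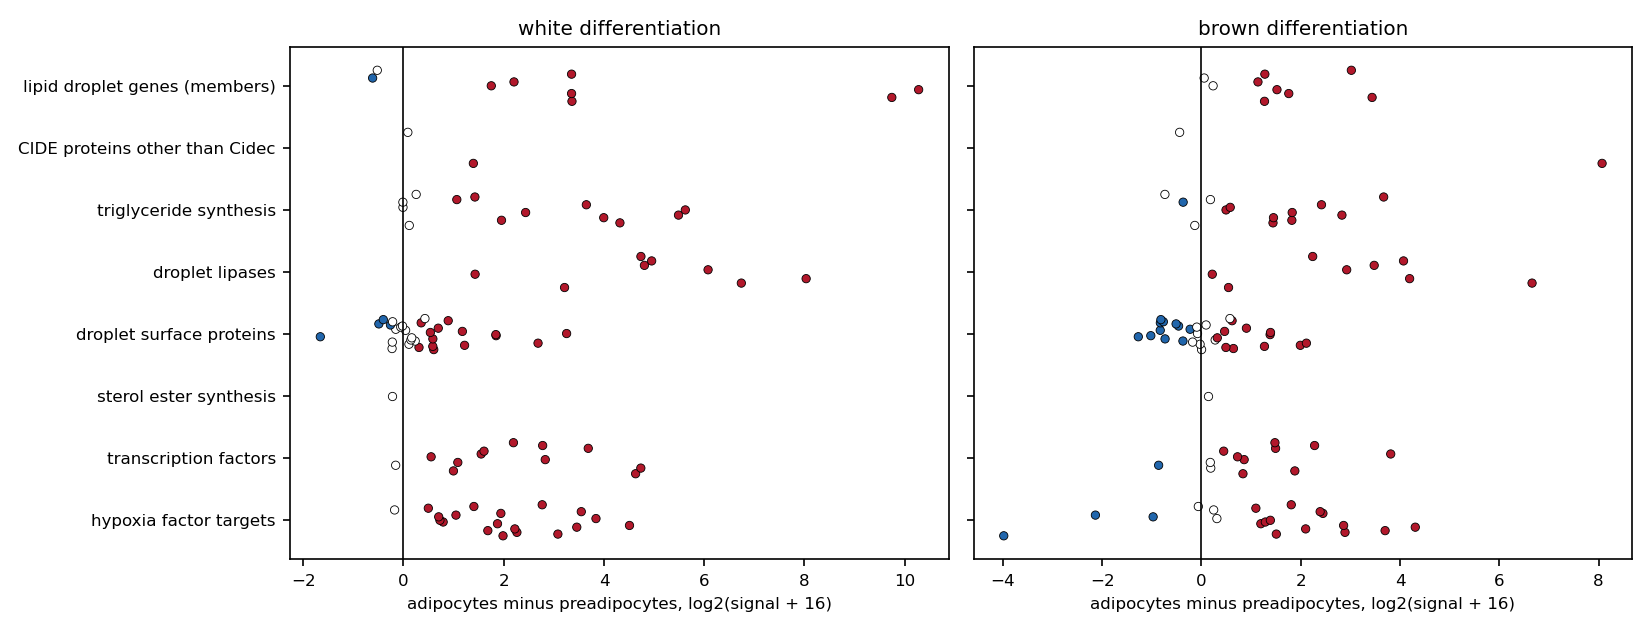
Change with differentiation of the 9 tested droplet genes and of the tested genes of 7 lists (x axis: adipocytes minus preadipocytes in log2(signal + 16); rows: lists; points: genes), in white cells on the left and brown cells on the right. Red points rose and blue points fell at an adjusted p under 0.05, and open points did not pass: all 8 lipase genes are red in both panels, and the surface proteins lie on both sides of 0.

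The genes whose pattern over the 12 arrays was most like that of a member are named as a description, since the 12 points share 4 groups. Fitm2 was closest to Dgat2, Apmap and the hormone-sensitive lipase gene Lipe (Pearson r of 0.9987, 0.9987 and 0.9982). G0s2 was closest to Plaat3, C1qtnf12 and Abca1 (r of 0.9987, 0.9980 and 0.9977) and Cidec to Sult1a1, Hsd11b1 and Dhrs7b (r of 0.9968, 0.9960 and 0.9959). Hsd11b1 is the coding gene next to G0s2 in the reference. Plin2 lay nearest to Hacl1, Bckdhb and Apoc1 (r of 0.9983, 0.9982 and 0.9977), Plin4 to Apoc4, Mccc1 and Retsat (r of 0.9981, 0.9971 and 0.9953) and Bscl2 to Aco1, Tcn2 and C8g (r of 0.9967, 0.9935 and 0.9882). Plin5 had Ntsr2, Ndufaf4 and Fgl1 (r of 0.9812, 0.9769 and 0.9742), Hilpda had Amn1, Blvrb and Cldn15 (r of 0.9877, 0.9826 and 0.9814), and Plin3 had Smarcad1, Ssbp2 and Il18rap (r of 0.9778, 0.9681 and 0.9660). Among the members themselves, Plin2, Cidec and Fitm2 varied together (r of 0.971 to 0.989), while Plin3, Plin5 and Hilpda reached 0.9 with no other member. G0s2 also passed 0.9 with Bscl2, Fitm2 and Cidec (r of 0.962, 0.933 and 0.913). So did Plin4 with Cidec and Plin2 (0.921 and 0.917) and Bscl2 with Fitm2 (0.919). Values of 0.9 or more were common, reached by 860, 740 and 811 of the 13752 tested genes with Plin2, Cidec and Fitm2.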

How the data were processed

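RNA of 12 samples was measured on 3' expression arrays, as biotin-labelled cRNA per the labels' protocols. The submitters' processing notes name Affymetrix Expression Console, with which the authors made the deposited linear signal intensities. Its version and its summary method were not found among the labels. In the deposited intensity values, the mean after trimming 2% at each end was 500.003 to 500.004 on every array.

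Of 45101 probe sets, 34958 carried 1 symbol in the platform annotation, 932 several and 9211 none. Control probe sets were left out. A gene with several probe sets was represented by its brightest, by mean signal. Genes above the array's 40th percentile on at least 3 of 12 arrays were tested (13752, with 4441 removed as dim) on the log2(signal + 16) scale with limma 3.58.1 in R 4.3.3 (lmFit on 4 group means, eBayes, 8 residual and 1.81 prior degrees of freedom). P-values are two-sided, adjusted by Benjamini-Hochberg over all genes tested. Only 3 arrays per group limit the precision. The fit was tested on simulated data; the share of changed genes first asked for was narrowly missed, and the pass rule was changed after that. Promoter sequences were matched by symbol for all 10 genes, and each motif was searched on both strands of the 250 bases before the start.

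The members and lists were chosen with earlier results of these data known. The text names every member, the 3 genes most correlated with a member, and Adipoq, Ucp1 and Dlk1. Of each list, up to 3 genes with the largest change among those called in a comparison were selected, and the text describes only some of them. Ces1f, Epas1 and Mettl7b are among those selected but not described, so the list genes described are not always those with the largest change. Values of Abhd5, Adm, Tmem159, Pnpla2, Ppara and Dgat2 in further comparisons, Lpin2, Hif1a and the neighbour Lrg1 were added after their values were seen. So were those of Cideb and of the markers Lyz2, Cd14, Csf1r, Cd68, Des, Ckm and Acta1. Alternatives changed the pseudocount (1 or 64), the scaling, the filter, the choice of probe set, the moderation, the arrays in the fit and the replicate block, and left out each array in turn.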

Additional observations from a re-analysis of the deposited data

Results flagged for a closer look

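The change with differentiation differed between the brown and the white line for each of the 9 tested genes, by the interaction term of the limma fit (brown change minus white change, 3 arrays per group). The difference was -8.76 for G0s2, -6.31 for Cidec, -2.09 for Bscl2, -2.08 for Plin4, -1.60 for Fitm2 (SE 0.0952, adjusted p = 4.63e-07), -1.52 for Hilpda (SE 0.221, adjusted p = 0.000248) and -1.07 for Plin2 (SE 0.101, adjusted p = 1.19e-05). It was 0.67 for Plin3 (SE 0.127, adjusted p = 0.00140) and 3.54 for Plin5. Of all genes tested, 51.1% were called in this comparison. No test for outlying arrays was run in groups of 3. Each of the 9 differences kept its sign and its call when single arrays were left out in turn.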

How the results depend on the processing

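Of 1116 recomputed member results (45 gene and comparison pairs), 1097 kept their direction and their side of the threshold. Of the rest, 0 called results lost the call, 7 gained one with the sign kept, and 12 changed sign. A call gained along with a change of sign, as for Plin5 in white cells, is counted among the 12. None of the sign changes met a difference called in the reported fit. The Plin5 change in white cells was 0.30 with the mean of probe sets and 1.12 with specific probe sets only or the other probe set (adjusted p = 0.00292 and 0.00313). The Plin3 change in brown cells was -0.158 with scaling to hybridization controls, and -0.040 to 0.104 when each array was left out in turn, negative only without brown adipocyte replicate 3. Between adipocytes, hybridization control scaling gave 0.00778 for Plin3 and 0.079 for Fitm2, while equal medians called both lower in brown cells (-0.28 and -0.21, adjusted p = 0.0215 and 0.0220), and so did the fit without brown adipocyte replicate 3 for Plin3 (-0.24). Between preadipocytes, Plin4 was -0.0745 with equal medians and called at 0.29 with hybridization control scaling, at 0.20 with an intensity trend, and without white preadipocyte replicate 2 or brown preadipocyte replicate 3 (0.26 and 0.27), within adjusted p of 0.0257 to 0.482. Plin5 there was -0.12 with quantile normalization, -0.13 with equal medians, and -0.26 to 0.30 when each array was left out in turn, negative without white preadipocyte replicate 1 (-0.10) and brown preadipocyte replicate 3 (-0.26). The cause was not tested.

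Droplet pathway genes called down in white cells went from 4 to 9 with equal medians and 13 with hybridization control scaling, since these scalings moved the median change of all genes from 0.02 to -0.09 and -0.225. The same scalings turned the split of all calls: to 2951 up and 5643 down in white cells and 2640 up and 5626 down in brown cells with hybridization controls (from 4141 and 4286, and 3736 and 4342), to 4897 higher and 3183 lower in brown cells between adipocytes with hybridization controls, and 3450 and 4689 with equal medians (from 4140 and 4061); and to 2735 and 4948 between preadipocytes with equal medians, and 4814 and 2708 with hybridization controls (from 4307 and 3274). For the difference between lines, equal medians gave 3764 and 3045 (from 3248 and 3778). With specific probe sets only, Bscl2 and Hilpda had no probe set, so members called higher in brown adipocytes went from 2 to 1 and members lower in brown preadipocytes from 2 to 1.

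Replicate numbers did not pair the arrays (correlations of same-numbered deviations of -0.029 to 0.027). With the replicate block, calls over all genes were 8345 against 8427 in white cells and 7977 against 8078 in brown cells, and no member's call changed. Signals near the dim level, as for Plin5 outside brown adipocytes and for Fitm1, limit what these arrays can show.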
